A study of Mus musculus with 13 samples.

Results

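Small RNA captured from undifferentiated mouse HOXB8 cells by the biotin-labelled sialic acid was set against small RNA captured by wheat germ agglutinin (WGA), a lectin, across every sequence of the deposited small RNA table. The table lists 18385 unique sequences in 16 RNA classes for 9 libraries, and 13818 of the sequences had a read in the HOXB8 biotin or the HOXB8 WGA library. The comparison takes in 2 of the 13 libraries of the series, 1 on each side, so no difference between them has a replicate check. All 13818 sequences were used, grouped by RNA class, by annotated record (the reference RNA a sequence was assigned to) and by read length.

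HOXB8 cells are a myeloid progenitor line that estradiol holds undifferentiated, and all libraries described here come from this line. Per the labels, the cells grew with 1 µM estradiol and 100 ng/ml SCF, a growth factor of early blood cells. They were labelled for 36 h with 100 µM Ac4ManNAz beside 10 µM Gal and 100 µM GalNAc. HOXB8 biotin is RNA reacted with DBCO-PEG4-biotin and held on streptavidin beads (1 library). HOXB8 WGA is RNA held on WGA beads (1 library). HOXB8 input is gel-purified RNA under 300 nt (1 library), used here as background. The labels give the size limit for inputs only. The labelling text stands in the labels of both captures, and a capture from unlabelled HOXB8 cells was not analysed here. The table holds small RNA only, so the identity of the cells was not checked against marker genes. A second pair, 1 biotin and 1 WGA library of HOXB8 cells differentiated by removing estradiol, shares no library with the first. Whether these libraries came from separate cultures is not given in the sources used here.

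GlycoRNA is small RNA reported to carry sialylated glycans, part of it on the cell surface. Ac4ManNAz is taken up and turned into sialic acid with an azide group, to which DBCO-biotin clicks, so streptavidin holds molecules with newly made sialic acid. WGA binds sialic acid and also N-acetylglucosamine, so it can hold glycans that carry no newly made sialic acid. Many reads in the table are fragments of ribosomal RNA, which is cut from the 45S precursor, whose external and internal transcribed spacers are removed to leave 18S, 5.8S and 28S rRNA.

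The same 4 sequences head both captures in the same order. Of these, 3 are shown because they hold much of the table on both sides, and the other, an 18-base genome read, is given by its position. The capitals mark the final 16 bases of the 45S spacer fragment, which recur in shorter reads that the table files under other classes, and the final 22 bases shared by a nested family of 28S reads.
chromosome 7 fragment: agcggagtagagcagt
45S spacer fragment: tcttaGATCGATGTGGTGCTC
28S fragment: gatATAGACAGCAGGACGGTGGCCA

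The table places the chromosome 7 fragment at 81731500 to 81731515 and the chromosome X fragment at 142215582 to 142215599, both on the reverse strand and in the genome class, with no gene named (the labels give mm10). The 45S spacer fragment covers positions 652 to 672 of the 45S record and the 28S fragment positions 9879 to 9903. The borders of the parts within that record come from textbook knowledge and were not tested against reference sequence. Reads of 16 to 18 bases can occur at several places in a genome, of which the table gives 1. A 17-base read that lacks only the first base of the chromosome X fragment, for example, is placed on chromosome 11 (27502519 to 27502535).

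Most reads of either capture lay in sequences that both captures had. The values below are RPM, the reads of a sequence scaled to the total reads of its library, and were whole multiples of 1 read in every library. They are relative levels, so more of one RNA and less of the others cannot be told apart. The HOXB8 biotin library had 6377059 reads, of which 91.9% were in the table, the HOXB8 WGA library 5522159 reads with 90.6% in the table, and the HOXB8 input 3745911 reads with 39.3%. Both captures had reads for 9560 sequences, which made up 98.6% of the biotin table and 97.2% of the WGA table. Of the 100 highest sequences of each library, 86 were shared between biotin and WGA, against 19 between biotin and input and 19 between WGA and input. Of the 10 highest sequences, 9 stood at the same rank in both captures.

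The 4 highest sequences took 61.1% of the biotin table and 47.3% of the WGA table. The chromosome 7 fragment stood at 306910 RPM in HOXB8 biotin, 193172 RPM in HOXB8 WGA and 7200 RPM in HOXB8 input. It alone made up 33.4% of the biotin table and 21.3% of the WGA table, a biotin to WGA ratio in RPM of 1.59 (exact 95% interval 1.585 to 1.593; intervals here hold counting error alone, and reads were not collapsed by molecular identifiers). The 45S spacer fragment had 117707 RPM in biotin, 114401 RPM in WGA and 26749 RPM in input, a ratio of 1.03 (1.025 to 1.032). The chromosome X fragment had 92447 RPM in biotin, 86844 RPM in WGA and 1410 RPM in input, a ratio of 1.06 (1.06 to 1.07). The 28S fragment had 44262 RPM in biotin, 33747 RPM in WGA and 894 RPM in input. All 4 stood above the input after either capture, the 45S spacer fragment least. As a share of the table that fragment was 12.8% in biotin, 12.6% in WGA and 6.80% in input. The sequence that separated the captures most in absolute terms was the chromosome 7 fragment.

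By class, the genome class, meaning reads placed on the genome outside the annotated RNAs, was larger after biotin, and rRNA, ncRNA, miRNA and tRNA were larger after WGA. The genome class made up 47.1% of the biotin table (exact Clopper-Pearson 95% interval 47.1 to 47.2), 35.6% of the WGA table (35.5 to 35.6) and 7.47% of the input table, a log2 ratio of shares of 0.41. The rRNA class made up 44.4% of the biotin table (44.3 to 44.4), 51.4% of the WGA table (51.4 to 51.5) and 52.6% of the input table, a log2 ratio of -0.21. The ncRNA class made up 4.05% after biotin, 6.26% after WGA and 11.1% in the input (log2 ratio -0.63). The miRNA class made up 1.79% after biotin, 2.60% after WGA and 3.46% in the input (-0.54), and tRNA 1.04%, 1.45% and 7.18% (-0.48). The counting intervals given do not overlap between the captures, and the error between libraries was not measured.

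**Figure D1:**
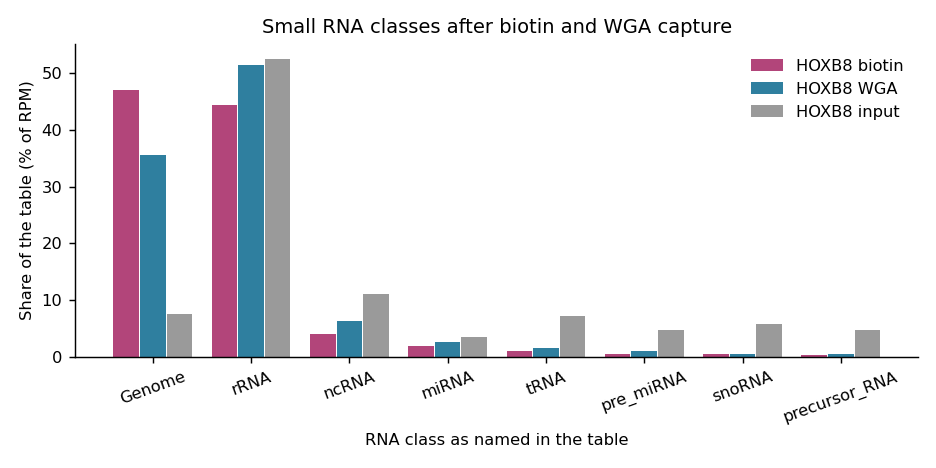
Share of the table in percent of RPM for the 8 RNA classes that reach 0.4% in either capture, in HOXB8 biotin, HOXB8 WGA and HOXB8 input (1 library each). The genome class stands at 47.1% after biotin, 35.6% after WGA and 7.47% in the input, while tRNA and snoRNA are small after both captures.

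The smaller classes were all lower after biotin where both captures had reads. The snoRNA class, guides of rRNA modification, stood at 0.441% in biotin, 0.551% in WGA and 5.70% in input. Precursor RNA stood at 0.280%, 0.550% and 4.65%, pre-miRNA at 0.506%, 0.960% and 4.66%, and snRNA, the RNA of the spliceosome, at 0.139%, 0.239% and 0.615%. The SRP RNA class, 7SL, the RNA of the signal recognition particle, stood at 0.0799%, 0.117% and 0.547%. Y RNA, a class linked to Ro protein, had 1 sequence in the table with no read after biotin or WGA and a share of 0.000883% in the input. With 0 reads in both captures it gives no ratio. Vault RNA and 7SK are not named in the table.

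The genome and rRNA directions depended on the highest sequences, and the ncRNA and miRNA ratios became smaller in size without them. Without its 2 highest sequences the genome class held 33808 RPM in biotin, 42088 RPM in WGA and 20739 RPM in input, a log2 ratio in RPM of -0.32. That value is not rescaled as the shares are, and it lies above the median of -0.54 over sequences at a mean of 100 RPM or more. As a log2 ratio of shares, without the 10 highest sequences of each library, the genome class was at -0.12. In the genome class, 2 sequences weighed most. Those 2 sequences made up 92.2% of the class after biotin, 86.9% after WGA and 29.3% in the input. With only the chromosome 7 fragment left out, a setting added once the data had been seen, the rRNA log2 ratio of shares turned to 0.027. The genome ratio came to 0.19 in that setting. The ncRNA, miRNA and tRNA ratios came to -0.39, -0.30 and -0.24 and kept their sign. The tRNA ratio was -0.65 without the 10 highest sequences of each library. Those lists took the highest tRNA read (3726 RPM in biotin, 3356 RPM in WGA) out of biotin only. This value therefore does not test the tRNA direction. In each other setting tried the tRNA ratio was below 0. Among sequences of 20 or more bases the genome ratio was -0.55 and the rRNA ratio 0.051.

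Class names also did not separate origins. Of the ncRNA class, 95.2% of RPM after biotin and 94.3% after WGA lay in sequences that share a stretch of 16 bases with rows of the 45S record. In the miRNA class it was 70.8% after biotin and 62.5% after WGA, and in tRNA 0.199% and 0.545%. Summed over all classes, sequences of the 45S record or sharing such a stretch held 48.99% of the biotin table, 58.2% of the WGA table and 60.5% of the input table. The spacer fragment shows how reads of 1 origin were split, in reads that keep its final 16 bases (capitals).
rRNA class, 22 bases: ctcttaGATCGATGTGGTGCTC
pre-miRNA class, 19 bases: ttaGATCGATGTGGTGCTC
miRNA class, 16 bases: GATCGATGTGGTGCTC
The 22-base read stood at 20532 RPM in biotin and 18454 RPM in WGA, the 19-base read at 751 RPM in biotin and 906 RPM in WGA, and the 16-base read at 1841 RPM in biotin and 2981 RPM in WGA. Their log2 ratios were 0.15, -0.27 and -0.70.

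Single sequences were compared by log2 of (RPM + 1) in biotin over (RPM + 1) in WGA, among the 515 sequences with a mean of 100 RPM or more over both captures. With 1 library a side no test is possible, and a difference of more than 2-fold was used as the limit. More than 2-fold higher in biotin were 11 sequences, or 2.14% of those compared, and more than 2-fold lower were 122, or 23.7%, so 25.8% lay past 2-fold either way. The median log2 ratio was -0.54, with the middle 80% of sequences between -1.38 and 0.31. This shift went with the large share of reads that the chromosome 7 fragment took after biotin: with each library scaled to its table without that fragment the median of the same sequences was -0.32, and 12 were higher and 72 lower. Relative to the median, 34 sequences (6.60%) were more than 2-fold higher and 32 (6.21%) more than 2-fold lower, and 87.2% lay within 2-fold. The share of higher sequences among those past 2-fold thus moved to 51.5% when centred, against 8.27% as deposited.

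**Figure D2:**
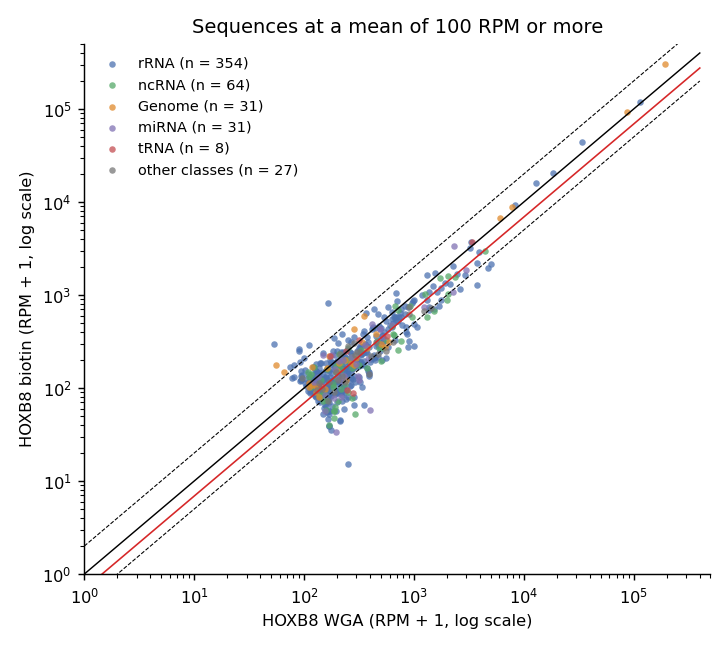
RPM + 1 in HOXB8 biotin (vertical axis) against HOXB8 WGA (horizontal axis), both on log scales, for the 515 sequences at a mean of 100 RPM or more, coloured by class. The black line marks equal values, the dashed lines 2-fold, and the red line the median log2 ratio of -0.54; most points lie between equality and 2-fold lower in biotin, and the few highest lie on or above equality.

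The class medians of these sequences lay closer together than the class shares. The median log2 ratio was -0.17 over 31 genome sequences, -0.54 over 354 rRNA sequences, -0.74 over 64 ncRNA sequences, -0.64 over 31 miRNA sequences and -0.20 over 8 tRNA sequences. Of the 122 sequences more than 2-fold lower in biotin, 83 were rRNA, 22 ncRNA, 8 miRNA, 5 precursor RNA and 2 tRNA. Of the 11 more than 2-fold higher, 9 were rRNA and 2 genome.

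Of the 6 sequences with the largest ratio among these 515, 5 are shown because they are the ones that the sialic acid label held most in excess at this level. Capitals mark a changed base in the 45S spacer variant and, in the chromosome 17 read, the 16 bases that equal the chromosome 7 fragment.
45S spacer variant T3G: tcGtagatcgatgtggtgctc
chromosome 17 read: aaAGCGGAGTAGAGCAGT
45S spacer, 60 bases: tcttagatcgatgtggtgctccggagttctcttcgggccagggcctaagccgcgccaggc
45S 10954 to 10982: ttcttcccgtcggggggcgggtcgggggt
45S 11252 to 11268: tggcgggggcgggcggg

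The 45S spacer variant T3G, with position counted from 1 at the 5′ end, had 298 RPM in biotin, 52.3 RPM in WGA and 17.6 RPM in input, a ratio of 5.69 (exact 95% interval 5.02 to 6.46). In the differentiated pair it had 1748 RPM in biotin and 1188 RPM in WGA. The chromosome 17 read (85073432 to 85073449) had 177 RPM in biotin, 54.9 RPM in WGA and 2.67 RPM in input, and in the differentiated pair 71.8 RPM in biotin and 108 RPM in WGA, so its direction differed there. The 60-base spacer read starts where the 45S spacer fragment starts and runs to position 711. It had 261 RPM in biotin, 88.4 RPM in WGA and 3.47 RPM in input (ratio 2.95, 2.67 to 3.27), and 312 RPM in biotin and 49.5 RPM in WGA in the differentiated pair. The read at 10954 to 10982 had 250 RPM in biotin and 89.5 RPM in WGA, and the read at 11252 to 11268 had 292 RPM in biotin and 110 RPM in WGA. The differentiated pair had the other 4 in the same direction.

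The 6 sequences with the smallest ratio among the 515 were all under 20 bases. They are shown because at this level the lectin capture held them most in excess.
45S 10359 to 10375: cgatggcctccgttgcc
miRNA-class record URS00000ED635, 98 to 113: gtggacggtgtgaggc
miRNA-class record URS0000AB0069: attctgactggagtgaag
ncRNA record URS000095185A, 266 to 284: cagtgcggtaacgcgaccg
45S 9180 to 9196: ccgtcggtcacgcgtct
45S 8732 to 8747: gtgtggtggtggcgcg

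The first, from the 28S part, had 14.4 RPM in biotin, 251 RPM in WGA and 10.9 RPM in input, a biotin to WGA ratio of 0.0575 (exact 95% interval 0.0460 to 0.0710). The read of URS00000ED635 had 56.5 RPM in biotin, 397 RPM in WGA and 39.8 RPM in input (ratio 0.142), and 21.7 RPM in biotin and 115 RPM in WGA in the differentiated pair. The read of URS0000AB0069 had 32.8 RPM in biotin, 196 RPM in WGA and 731 RPM in input (ratio 0.167), so it was below the input after both captures. The remaining 3 had ratios of 0.180, 0.187 and 0.198. In the differentiated pair these 3 were on the other side, with log2 ratios of 0.46, 0.54 and 2.67, while the other 3 stayed below 0 at -0.86, -2.35 and -0.92. The 2.67 came from 5.34 RPM in differentiated biotin against 0 reads in differentiated WGA, so the 1 RPM added to each value set its size.

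The highest sequence of each class and the one nearest to equality set the scale of these differences. The highest tRNA read, gcattggtggttcagtgg of record URS00022AE5B4, had 3726 RPM in biotin, 3356 RPM in WGA and 10090.2 RPM in input (ratio 1.11, 1.09 to 1.13). The highest ncRNA read, ctggcgtggagccgggcg of record URS00009496BB, had 2956 RPM in biotin, 4452 RPM in WGA and 3013 RPM in input (ratio 0.664). The highest read of the miRNA class, a 36-base read of record URS0000A95528, had 3361 RPM in biotin, 2320 RPM in WGA and 89.7 RPM in input (ratio 1.45, 1.42 to 1.48). Nearest to equality were an rRNA read at 11261 to 11288 of the 45S record, with 103 RPM in each capture, a genome read with 164 RPM in biotin and 162 RPM in WGA, and reads of the miRNA, ncRNA and tRNA classes with ratios of 0.990, 0.978 and 1.04.

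Along the 45S record, the spacer was close to equal after both captures and most of the 28S part was lower after biotin. The 5′ external spacer held 143197 RPM in biotin, 137058 RPM in WGA and 32235 RPM in input, nearly all of it around the spacer fragment. The 18S part held 6139 RPM in biotin, 8098 RPM in WGA and 3895 RPM in input, and the 5.8S part 5596 RPM, 7326 RPM and 12598.5 RPM. The 28S part held 222076 RPM in biotin, 271458 RPM in WGA and 75582 RPM in input. Within it, reads that end at position 9903, like the 28S fragment, went the other way from the rest. They held 75381 RPM in biotin and 61042 RPM in WGA (ratio 1.23, exact 95% interval 1.23 to 1.24), while all other 28S reads held 146695 RPM in biotin and 210416 RPM in WGA (ratio 0.697, 0.695 to 0.699). In the differentiated pair both parts were higher in biotin, with log2 ratios of 0.11 and 0.56.

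**Figure D3:**
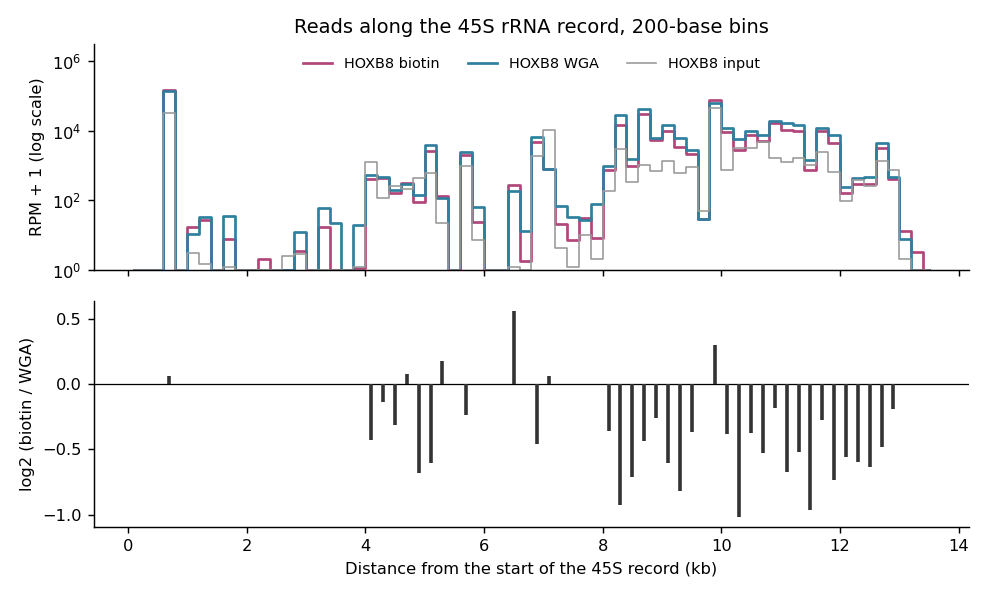
Summed RPM + 1 (upper panel, log scale) along the 45S record in bins of 200 bases for HOXB8 biotin, HOXB8 WGA and HOXB8 input, and log2 of biotin over WGA (lower panel) for bins at a mean of 100 RPM or more, against the distance from the start of the record in kb. Bins of the 28S part lie below 0 apart from the bin at 9.9 kb that holds the reads ending at position 9903.

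The reads that end at position 9903 differed in length from the input. Under 30 bases they held 75169 RPM in biotin, 60769 RPM in WGA and 17609 RPM in input. At 30 or more bases they held 212 RPM in biotin, 274 RPM in WGA and 25844 RPM in input. The sum of the shorter reads was above the input in both captures and the sum of the longer reads below it. Not every short form followed its sum: the reads of 17 to 20 and of 26 to 28 bases were below the input in both captures, and the 17-base read had 65.4 RPM in biotin, 111 RPM in WGA and 12715 RPM in input. The capitals below mark the 22 bases that these reads share.
24 bases: atATAGACAGCAGGACGGTGGCCA
22 bases: ATAGACAGCAGGACGGTGGCCA
41 bases: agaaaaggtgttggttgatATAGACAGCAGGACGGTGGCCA
The 24-base read had 15958 RPM in biotin, 12873 RPM in WGA and 658 RPM in input, and the 22-base read 3184 RPM, 3228 RPM and 67.8 RPM. The 41-base read had 23.5 RPM in biotin, 24.6 RPM in WGA and 3057 RPM in input.

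A second nested family, near the start of 28S, was lower in biotin at almost every length. Its reads start at positions 8252 to 8255 and most of them end at 8286 to 8291. The capitals mark the bases past position 8286.
34 bases: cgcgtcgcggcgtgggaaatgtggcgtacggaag
36 bases: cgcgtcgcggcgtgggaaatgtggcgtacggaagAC
38 bases: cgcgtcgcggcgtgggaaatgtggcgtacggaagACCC
The 34-base read had 1275 RPM in biotin, 3772 RPM in WGA and 33.4 RPM in input, the 36-base read 1973 RPM, 4713 RPM and 88.9 RPM, and the 38-base read 1623 RPM, 2934 RPM and 31.0 RPM. Summed over the 34 sequences of this family at a mean of 10 RPM or more, biotin held 7921 RPM, WGA 18124 RPM and input 383 RPM, a ratio of 0.437. Of the 34 sequences, 17 were more than 2-fold lower in biotin and 1 was more than 2-fold higher. Among all 5498 sequences at 10 RPM or more 40.6% were more than 2-fold lower and 8.46% more than 2-fold higher. Among the 522 of 30 to 39 bases, the range of the 3 reads shown, 154 were more than 2-fold lower and 33 more than 2-fold higher. The share of the family that was lower was thus nearer the background of all lengths than that of this range. In the differentiated pair the family held 3554 RPM in biotin and 4177 RPM in WGA. The family was chosen after its values were seen.

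Read length separated the captures in another way. Mean length, weighted by RPM, was 19.7 bases in biotin, 20.1 in WGA and 24.1 in input. Reads of 16 to 19 bases made up 61.0% of the biotin table, 57.3% of the WGA table and 44.6% of the input table, and 30 to 39 bases 3.46%, 5.11% and 14%. Reads of 50 or more bases were rare in both captures, at 0.463% of the biotin table (exact 95% interval 0.458 to 0.469), 0.233% of the WGA table (0.228 to 0.237) and 4.67% of the input table. In RPM they came to 4256 in biotin and 2106 in WGA, a ratio of 2.02 (1.98 to 2.07). The rRNA class gave 2669 RPM of these in biotin and 1142 RPM in WGA, and snoRNA 1031 RPM and 498 RPM. In the differentiated pair, reads of 50 or more bases held 16914 RPM in biotin and 4057 RPM in WGA.

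Over the 5498 sequences at a mean of 10 RPM or more, the median log2 ratio went up with length. It was -0.93 for 2667 sequences of 16 to 19 bases, -0.58 for 1438 of 20 to 24 bases, -0.55 for 690 of 25 to 29 bases, -0.46 for 522 of 30 to 39 bases, -0.18 for 126 of 40 to 49 bases and 0.63 for 45 of 50 to 69 bases. The 10 sequences of 70 or more bases had a median of 2.03, which is a thinly filled group. At the higher limit of 100 RPM the order was less regular, with medians of -0.60 over 288 sequences of 16 to 19 bases, -0.42 over 140 of 20 to 24, -0.27 over 43 of 25 to 29, -0.56 over 37 of 30 to 39 and -0.49 over 4 of 40 to 49 bases. At 10 RPM or more the differentiated pair had the same order, with medians between -0.53 for 16 to 19 bases and 1.63 for 50 to 69 bases. Sequences of 1 length class overlap each other on the same records, so these counts are not independent. The sources used here do not say whether the captures were size selected alike, and the part of size selection in the result was not tested.

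**Figure D4:**
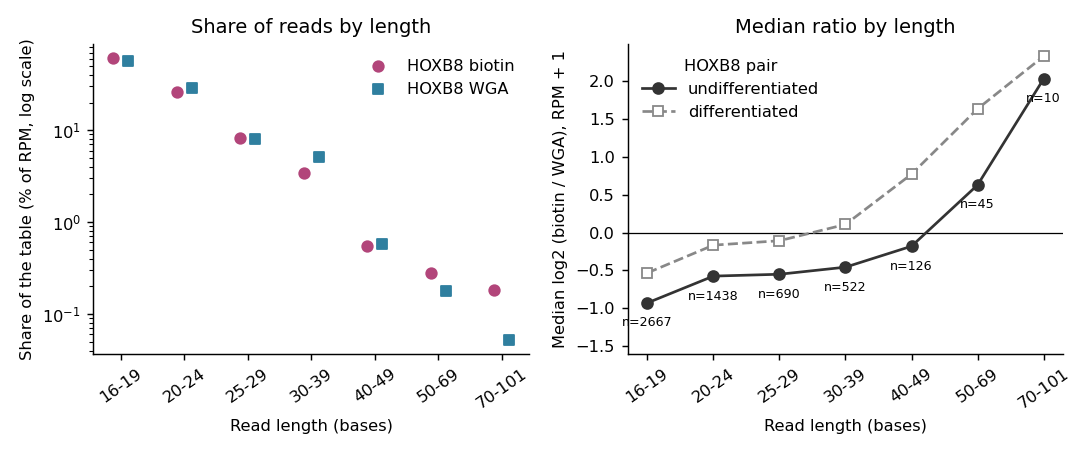
Left, share of the table in percent of RPM on a log scale by read length in bases for HOXB8 biotin (circles) and HOXB8 WGA (squares). Right, median log2 of biotin over WGA for sequences at a mean of 10 RPM or more in the undifferentiated (filled circles, with n) and differentiated (open squares) pairs; both lines go up with length, crossing 0 between 40 and 69 bases in undifferentiated cells.

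Base content was compared in the same way. Reads that start with A made up 40.5% of the biotin table, 30.1% of the WGA table and 23.6% of the input, and the chromosome 7 fragment starts with A. Reads that start with C made up 16.2% in biotin, 23.8% in WGA and 37.1% in input. GC content weighted by RPM was 56.6% in biotin, 58.8% in WGA and 56.8% in input. Of the 515 sequences, the 128 with a run of GGGG on the read strand had a median log2 ratio of -0.26 and the 387 others -0.59, and in the differentiated pair the medians were 0.87 over 38 and -0.10 over 168. The run was searched after values were seen, and many of these reads overlap on the 28S part.

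Reads that differ by 1 base from the 4 highest sequences were compared because they travel with an abundant parent. The table held 45 such variants of the chromosome 7 fragment, 59 of the 45S spacer fragment, 46 of the chromosome X fragment and 70 of the 28S fragment. Their sums came to 0.932% of the parent in biotin and 0.949% in WGA for the chromosome 7 fragment. They came to 2.14% in biotin and 1.81% in WGA for the 45S spacer fragment, 1.497% and 1.27% for the chromosome X fragment and 2.10% and 1.72% for the 28S fragment. In the input the shares were between 2.56% and 5.41%. At a mean of 10 RPM or more the median log2 ratio of the variants was 0.72, 0.17, 0.22 and 0.43, against 0.67, 0.04, 0.09 and 0.39 for the parents in the same order. At this level were 40, 34, 27 and 19 variants. Of these, 2, 3, 4 and 2 lay more than 2-fold from the parent ratio. Above the parent were 1, 2, 3 and 2 of them, and the others were below it. Measured from equality and not from a parent, 40.6% of all 5498 sequences at this level were more than 2-fold lower in biotin. More than 2-fold higher were 8.46%. Besides T3G, 4 of them are shown with the changed base in capitals, counted from the 5′ end, from both sides:
45S spacer variant A11G: tcttagatcgGtgtggtgctc
45S spacer variant T12C: tcttagatcgaCgtggtgctc
28S variant A25C: gatatagacagcaggacggtggccC
28S variant A25G: gatatagacagcaggacggtggccG
A25C had 109 RPM in biotin, 6.34 RPM in WGA and 2.403 RPM in input (ratio 17.1, exact 95% interval 12.2 to 24.8), and 100 RPM in biotin and 18.4 RPM in WGA in the differentiated pair. A25G had 19.4 RPM in biotin and 4.35 RPM in WGA. A11G had 86.7 RPM in biotin, 16.1 RPM in WGA and 59.0 RPM in input. On the other side, T12C had 10.98 RPM in biotin and 36.8 RPM in WGA, and the chromosome 7 variant G12A had 29.6 RPM in biotin and 48.2 RPM in WGA. A change in the RNA, in copying and in sequencing cannot be told apart here.

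**Figure D5:**
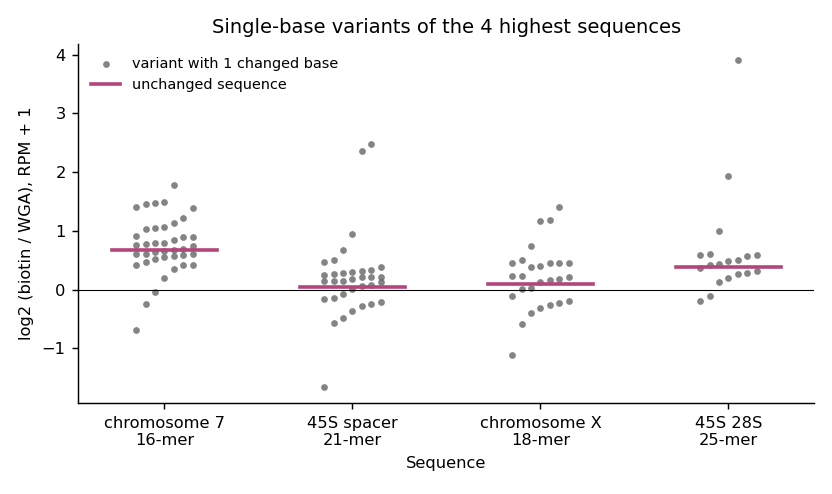
log2 of biotin over WGA (RPM + 1) for reads that differ by 1 base from each of the 4 highest sequences, at a mean of 10 RPM or more (points), with the unchanged sequence as a line. Most points lie near the line of their parent, and the 28S variant A25C lies highest at 3.90.

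Summed by annotated record, 144 records outside the genome class reached a mean of 100 RPM. More than 2-fold higher in biotin were 2 (1.39%) and more than 2-fold lower were 29 (20.1%), with a median log2 ratio of -0.58. Relative to that median 3 (2.08%) were higher and 7 (4.86%) lower. Of the 2, the snoRNA record URS0001BC199C had 268 RPM in biotin, 114 RPM in WGA and 23.0 RPM in input (ratio 2.35, 2.15 to 2.58), and 1813 RPM in biotin and 553 RPM in WGA in the differentiated pair. The next 3, within 2-fold, were antisense RNA URS000083BFAC (ratio 1.34), miRNA-class URS00004C89D9 (1.26) and ncRNA URS0000946993 (1.14).

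At the other end stood tRNA record URS0000748C4B, with 35.1 RPM in biotin, 258 RPM in WGA and 3658 RPM in input (ratio 0.136, 0.118 to 0.157). In the differentiated pair it had 23.2 RPM in biotin and 16.6 RPM in WGA. The antisense RNA URS0001C4172B had 83.0 RPM in biotin and 335 RPM in WGA (ratio 0.248), and the pre-miRNA record URS0000713AF9 had 81.9 RPM and 322 RPM (0.254). Both were lower in the differentiated biotin library too, with log2 ratios of -1.72 and -1.43. The tRNA record URS00006F4537 (ratio 0.292) and the ncRNA record URS000099C858 (0.299) completed the 5 smallest. The 5 most abundant records were the 45S record with 377384 RPM in biotin and 424443 RPM in WGA (ratio 0.889), URS0000A95528 (0.960), URS00009496BB (0.657), URS000091848E (0.669) and URS000095185A (0.600). By class, 7 of 9 pre-miRNA records, 5 of 17 tRNA records, 6 of 38 ncRNA records and 3 of 42 rRNA records were more than 2-fold lower, against the 20.1% of all records.

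Known miRNAs, short regulators of mRNA that pair through the seed (bases 2 to 8), were looked for by exact match to RefSeq hairpins (GRCm38.p6, 1005 hairpins), a step added after values were seen. Of the table's sequences 287 lay within a hairpin, and they covered 95 mature miRNAs by 16 or more bases. Of these, 29 reached a mean of 20 RPM and shared no stretch of 16 bases with the 45S record. Capitals mark the seed; miR-25 and miR-92a share theirs.
miR-27b-3p: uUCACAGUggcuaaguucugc
miR-25-3p: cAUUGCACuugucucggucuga
miR-92a-3p: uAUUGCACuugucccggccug
miR-181a-5p: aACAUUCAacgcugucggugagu
let-7c-5p: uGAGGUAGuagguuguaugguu
The 29 miRNAs summed to 2456 RPM in biotin, 3438 RPM in WGA and 797 RPM in input, and their median log2 ratio was -0.58, close to the -0.54 of all sequences at 100 RPM or more. miR-27b-3p was the highest, with 499 RPM in biotin, 667 RPM in WGA and 6.94 RPM in input (ratio 0.747, 0.712 to 0.784). miR-25-3p had 255 RPM in biotin, 476 RPM in WGA and 37.9 RPM in input (ratio 0.536), while miR-92a-3p, with the same seed, had 285 RPM in biotin, 236 RPM in WGA and 9.34 RPM in input (ratio 1.21). miR-181a-5p, a miRNA of blood cell development, had 329 RPM in biotin, 293 RPM in WGA and 3.74 RPM in input (ratio 1.12), and let-7c-5p 68.1 RPM, 153 RPM and 20.02 RPM (ratio 0.444). The other let-7 members among the 29 ran both ways. Their ratios were 0.325 (let-7b-5p), 0.667 (let-7i-5p), 0.860 (let-7d-5p), 0.989 (let-7f-5p), 1.27 (let-7a-5p) and 2.55 (let-7g-5p). In the differentiated pair miR-25-3p and let-7c-5p were higher in biotin, with log2 ratios of 0.32 and 0.40. The table is titled as non-miRNA, so these reads may be a part only of the miRNA in the libraries.

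Reads found in only 1 capture were low. Only biotin had reads for 2516 sequences, which made up 1.42% of its table, and only WGA for 1742 sequences, 2.76% of its table. The highest of each are shown with a pair that differs by 1 base in length. The capital marks a base that differs from the majority of reads over the same position of the record.
45S 10963 to 10980, variant G17C, biotin only: tcggggggcgggtcggCg
45S 8345 to 8363, biotin only: gtggacggtgtgaggccgg
45S 8345 to 8362, WGA only: gtggacggtgtgaggccg
45S 10917 to 10933, WGA only: cgtcccccgcgtcgtcg
The G17C read at 10963 to 10980 had 128 RPM (813 reads) in biotin and 0 reads in WGA, at least 235-fold higher against a floor of 3 reads in the WGA library. It also had 99.4 RPM in differentiated biotin and 0 reads in differentiated WGA. The read of the same positions without the change, tcggggggcgggtcgggg, was in both captures, with 2.35 RPM in biotin and 18.8 RPM in WGA. The read at 10917 to 10933 had 0 reads in biotin and 129 RPM (711 reads) in WGA, at least 274-fold lower against 3 reads in the biotin library. The reads at 8345 to 8363 and 8345 to 8362 differ by 1 base at the 3′ end, yet the longer had 56.3 RPM in biotin and 0 reads in WGA and the shorter 0 reads in biotin and 72.1 RPM in WGA. Of 350 biotin-only sequences at 10 RPM or more, 182 (52.0%) had a neighbour 1 base longer or shorter with 10 RPM or more in WGA. Of 1087 WGA-only sequences at 10 RPM or more it was 204 (18.8%) with such a neighbour in biotin. A read found in only 1 capture was therefore not a region found in only 1 capture in these cases.

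The differentiated pair, which shares no library with the undifferentiated one, holds the same contrast in another cell state. Of the 206 sequences at a mean of 100 RPM or more in both pairs, 117 had the same sign, and the log2 ratios had a Spearman correlation of 0.24 across these sequences, which overlap and are not independent. Their median was -0.38 in undifferentiated and 0.02 in differentiated cells. Among the 206 were 3 of the 11 sequences more than 2-fold higher in undifferentiated biotin, and all 3 were above 0 in the differentiated pair. Among them were also 37 of the 122 more than 2-fold lower, of which 20 were below 0 and 6 were more than 2-fold lower. Of all 206, 18 were more than 2-fold lower and 37 more than 2-fold higher in the differentiated pair. With the differentiated median of the 206 at 0.02, the 20 below 0 were near the background.

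Across both states, 4 libraries in all, limma's test on log2(RPM + 1) with cell state as a block called 3 of 4266 sequences at a Benjamini-Hochberg adjusted p under 0.05 (0.0703%), all higher in biotin. A 28S read and its form with 1 more base at the 3′ end were 2 of the 3, shown because they passed the test over both states. Both carry T20G, in capitals, against the majority base of the record.
45S 10579 to 10612, variant T20G: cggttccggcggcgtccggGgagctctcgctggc
45S 10579 to 10613, variant T20G: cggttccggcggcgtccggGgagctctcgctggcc
The 34-base read had 140 RPM in biotin and 1.09 RPM in WGA in undifferentiated cells, and 712 RPM in biotin and 99.0 RPM in WGA in differentiated cells, a log2 change of 4.46 (SE 0.74, adjusted p = 0.00235, limma). The 35-base read had 54.7 RPM in biotin and 0.181 RPM in WGA (1 read) in undifferentiated cells, and 572 RPM and 46.3 RPM in differentiated cells, a log2 change of 4.58 (SE 0.89, adjusted p = 0.0185, limma). The same reads without the change were lower in biotin in both states. Their log2 ratios were -0.19 each in undifferentiated cells, above the median of -0.54 of the 515 sequences. In differentiated cells they were -0.84 and -0.48. The unchanged 34-base read had 878 RPM in biotin and 999 RPM in WGA in undifferentiated cells, and 139.6 RPM in biotin and 250.2 RPM in WGA in differentiated cells. The unchanged 35-base read had 646 RPM in biotin and 740 RPM in WGA, and 116 RPM and 162 RPM. These calls concern the T20G reads only. edgeR's quasi-likelihood test on the whole reads called 0 of 4266 (61 at an unadjusted p under 0.05, against 237 for limma), with a biological coefficient of variation of 1.19. Each estimate rests on 1 residual degree of freedom, and the 2 long 28S reads are not independent of each other. With 1 library per capture in each state, that residual is the difference in the capture effect between the states. The adjusted p values and the coefficient of variation therefore do not measure spread between replicates. The limma p values also lean mainly on variance pooled across the 4266 sequences, many of which overlap and are not independent.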

How the data were processed

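The authors deposited RPM per unique sequence, with class, record, position and length (build mm10, per the submitters' processing notes); the aligner and filters are not given in the sources used here. Library totals were recovered from the RPM steps: 100% of values were whole reads within 0.01 read, and 0 columns were left unmapped. Sequences were compared by log2(RPM + 1), with exact conditional intervals on reads for ratios and exact Clopper-Pearson intervals for shares. With 1 library a side no test was made. The only test was limma 3.58.1 over both cell states (mean of 10 RPM or more, cell state as a block, Benjamini-Hochberg); edgeR 4.0.16 on the recovered reads was an alternative and called 0. On simulated data at a dispersion of 0.05 both tools recovered 50 of 50 sequences changed 4-fold; at the 1.42 estimated here limma recovered 0 of 50 at 4-fold and 15 of 50 at 256-fold, and edgeR 0 at each.

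Named were classes at 1% or more with their highest sequence and the one nearest to equality, the 3 highest sequences of each capture, the 6 largest and 6 smallest ratios, and the 5 highest, 5 largest and 5 smallest records. Families, variants, miRNAs, base runs and reads found in 1 capture were chosen after values were seen. A sequence and its record that the naming rule selects are not reported here. The members and lists were chosen with earlier results of these data known. Python 3.11.15, pandas 2.3.3, scipy 1.17.1 and R 4.3.3 were used.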

Additional observations from a re-analysis of the deposited data

Results flagged for a closer look

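For 5 classes the biotin to WGA ratio of shares pointed one way in undifferentiated cells and the other way in differentiated cells. Each state has 1 library a side, so the difference between states was not tested. The log2 ratio of the genome class was 0.41 in undifferentiated and -0.31 in differentiated cells. It was -0.21 and 0.13 for rRNA, -0.63 and 0.091 for ncRNA, -0.54 and 0.10 for miRNA, and -0.48 and 0.75 for tRNA, in the same order of states. The chromosome 7 fragment moved with these values: it stood at 306910 RPM in biotin and 193172 RPM in WGA in undifferentiated cells, and at 192251 RPM in biotin and 252595 RPM in WGA in differentiated cells. Without it the undifferentiated rRNA ratio was 0.027; its part in the differentiated ratios was not tested.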

How the results depend on the processing

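No paired analysis was possible because the labels give these libraries no replicate numbers, so the captures could be paired by cell state only. As shares of all reads, the log2 ratio was 0.43 for genome, -0.61 for ncRNA and -0.19 for rRNA. With the 10 highest sequences of each library left out, lists that share 9, it was -0.12, -0.089 and 0.070 for these classes and 0.0035 for miRNA. Among reads of 20 or more bases it was -0.55, -0.42 and 0.051, and over distinct sequences -0.27, 0.039 and 0.044. Without the highest sequence, a choice made after seeing the data, it was 0.19, -0.39 and 0.027. In these settings the genome, ncRNA, rRNA and miRNA directions turned as their signs show.

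Sequences more than 2-fold higher and lower in biotin numbered 465 and 2231 of 5498 at 10 RPM or more. At 1000 RPM or more they numbered 0 and 11 of 48. Of the 515 sequences they numbered 34 and 32 when centred on the median, 24 and 240 past 1.5-fold, and 2 and 12 past 4-fold. They numbered 2 and 59 of 396 with 100 RPM in both libraries, and 6 and 47 of 227 among reads of 20 or more bases. Scaled to the table without the highest sequence, 807 sequences reached 100 RPM, of which 28 were higher and 123 lower. Records numbered 35 and 182 of 504 at 10 RPM or more, and 0 and 4 of 33 at 1000 RPM or more. Of the 144 records they numbered 0 and 2 past 4-fold, and 7 were lower when centred and 71 past 1.5-fold.

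The log2 ratio of the share of reads of 50 or more bases was 1.53 without the 10 highest sequences and 0.32 over distinct sequences. Mean length, biotin minus WGA, was -0.39 bases, but 0.82 without the 10 highest and 0.90 over distinct sequences. limma's 3 calls became 6 with a pseudocount of 10 and 1 at 100 RPM or more. They became 0 with a pseudocount of 0.1, with no minimum and without the block (158, 408 and 22 at an unadjusted p under 0.05, limma). edgeR called 0 with TMM factors and 0 without (61 and 38 at an unadjusted p under 0.05). Of 92 values of 23 named sequences under alternatives, 58 moved by less than their interval, and 34 moved by more; the sign turned for 3 when centred and for 1, a genome read near equality, when scaled to the table total. The causes were not tested.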

Other observations

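Other genome reads held the chromosome 7 fragment within them. A read with 1 more T at the 5′ end, tAGCGGAGTAGAGCAGT, had 19.1 RPM in biotin and 0 reads in WGA, while the read with 1 more C, cAGCGGAGTAGAGCAGT, had 17.7 RPM in biotin and 47.3 RPM in WGA. The genome read ggcggatgtggcgaag (chromosome 9, 108669972 to 108669987) had 6707 RPM in biotin, 6037 RPM in WGA and 247 RPM in input. On snoRNA, mean read length weighted by RPM was 33.5 bases in biotin, 26.1 in WGA and 23.9 in input. Capitals mark the 16 bases shared with the chromosome 7 fragment.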
